A study of Mus musculus with 6 samples.

Results

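The mitochondrial ribosomal protein genes were examined in mouse liver, where 74 of them were measured among 37089 features. They were taken as all array targets whose description names a mitochondrial ribosomal protein, leaving out 5 targets described only as similar to one. This gave 113 target rows, and where a gene had several rows its brightest row by the mean log2 of the 6 arrays stands for it, whatever the groups. RefSeq holds 78 protein-coding mouse genes named Mrpl or Mrps, and 74 of them are these members. Mrpl42, Mrpl44, Mrpl58 and Mrps7 are not among the members.

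The livers came from wild-type C57 BL/6 males aged 9 to 10 weeks, 1 mouse per array. In the LPS/GalN group, 3 mice received 0.01 µg of LPS (lipopolysaccharide, a component of the bacterial outer membrane) together with 20 mg of D-galactosamine (GalN), a sugar taken up by hepatocytes that drains their uridine nucleotides. In the LPS group, 3 mice received the same amount of LPS alone. Treatment lasted 2.5 h in both groups, and every mouse of a group was treated separately. All 6 mice received LPS, and untreated mice or mice given GalN alone were not analysed here. Each difference is thus one between livers given LPS with GalN and livers given LPS alone. Markers of other tissues also differed between arrays, as given below. RNA was measured in whole liver, where fewer cells of a type and less RNA per cell cannot be told apart.

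Mitochondria translate the few proteins encoded in their own genome, all of them subunits of the respiratory chain and of ATP synthase, on ribosomes of their own. The RNA of these ribosomes is transcribed in the mitochondrion, while every ribosomal protein is encoded in the nucleus, made in the cytosol and imported. The small subunit decodes the messenger RNA and the large subunit joins the amino acids. Many of the proteins have a homologue in bacterial ribosomes, and the others are specific to mitochondria. Hepatocytes are rich in mitochondria. The kept rows of all 74 members were above the array's background on each of the 6 arrays, as were 20127 of the 37089 features. Not every other row of a member was, and a dim row of Mrpl13 stood above it on 3 arrays.

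None of the 74 genes differed between LPS/GalN and LPS livers past the threshold. By limma with Benjamini-Hochberg adjustment over all features, 0 members were higher and 0 were lower at an adjusted p under 0.05, and the same count of 0 was found when the 113 rows were tested singly. Among all features, 221 were higher (0.596%) and 1121 were lower (3.02%). At an unadjusted p under 0.05, 3 members were higher, against 8.47% of all features, and 2 were lower, against 9.04%. With a spread model that follows intensity and resists outliers, 1 member (Mrpl9) was called higher and 0 lower. When the test was limited to rows of the deposited series table, which leaves out dim targets, 73 members were tested, 2 (Mrpl47 and Mrpl9) were higher and 1 (Mrpl41) was lower. Member differences were small: all 74 stayed under 2-fold in either direction, as did 90.9% of all features. For 61 members (82.4%) the 95% confidence interval of the difference lay wholly within 2-fold, against 48.9% of all features. A member's interval reached a median of 0.51 log2 units to either side, and the smallest absolute log2 difference of any called feature in the data was 0.93, which no member's kept row reached.

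The members leaned towards higher values in LPS/GalN livers, with no single member past the threshold. The lean itself was not tested. Of the 74, 55 had a positive difference (74.3%), against 54.9% of all features. Their median log2 difference was 0.19, with quartiles of 0.0022 and 0.34, against a median of 0.053 over all features and of 0.098 over the 14798 features within the members' range of mean intensity. The 3 LPS/GalN arrays lay wholly above the 3 LPS arrays for 19 members (25.7%), against 12.9% of all features and 19.7% of the features within that range. They lay wholly below for 6 members (8.11%), against 11.1% of all features and 17.8% of the features within that range. The differences of single members ran from -0.71 for Mrpl41 to 0.77 for Mrpl47.

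**Figure D1:**
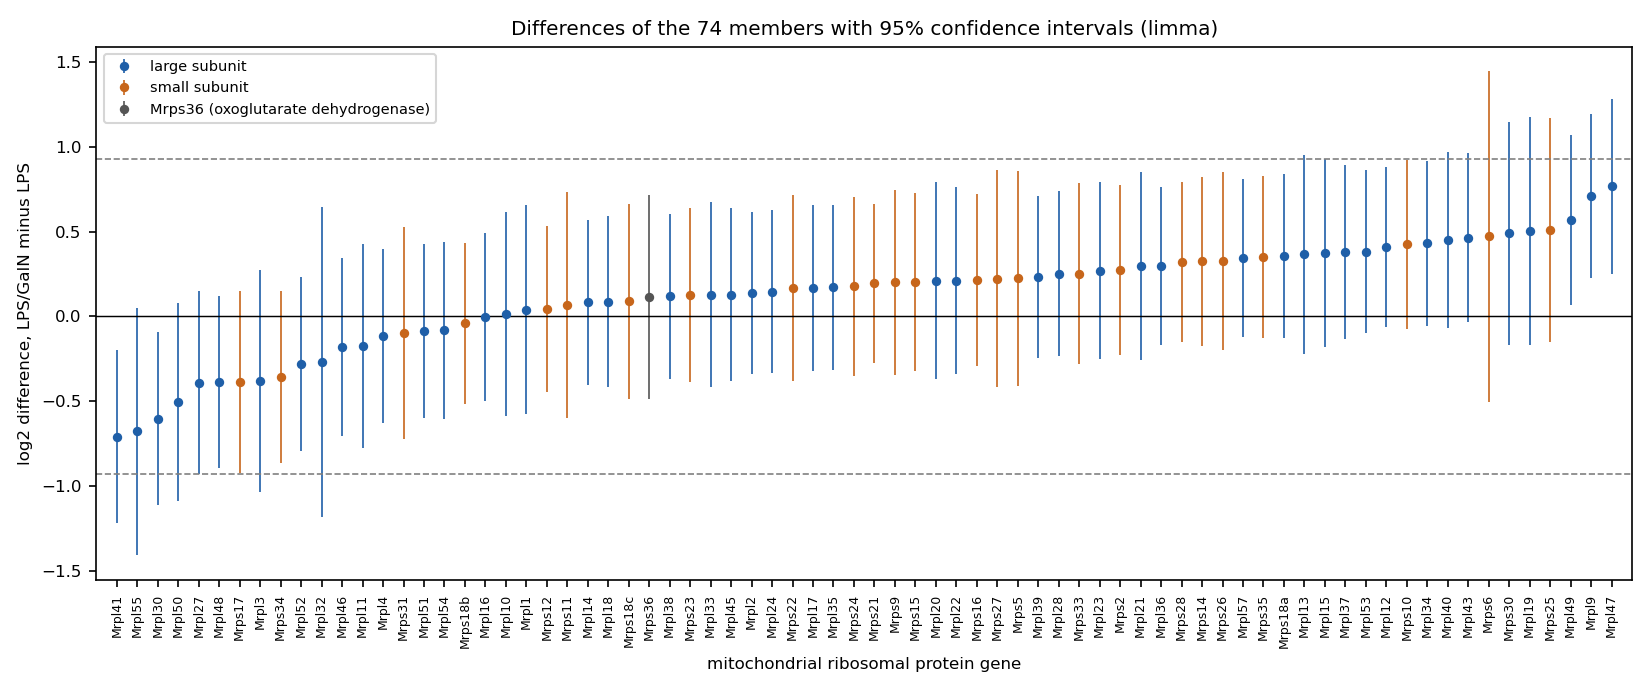
Log2 difference of each mitochondrial ribosomal protein gene, LPS/GalN minus LPS, in order of size, with the 95% confidence interval from limma (3 arrays a group). Dashed lines mark 0.93 above and below 0, the smallest absolute difference of any called feature, and no point reaches them. Most of the 74 points lie above 0.

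The 5 members with the largest positive differences among those whose groups did not overlap all belong to the large subunit. Mrpl47 (chromosome 3, 32626418 to 32635669 on mm9), which in the human structure sits near the tunnel where the new protein leaves the ribosome, had a log2 intensity of 8.20, 7.99 and 8.20 in LPS/GalN livers, against 7.11, 7.49 and 7.49 in LPS livers. The log2 difference was 0.77 ± 0.22 (SE, n = 3 each), and it did not pass by limma (adjusted p = 0.125). All LPS/GalN arrays were higher, and the lowest value was that of LPS replicate 1.

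Mrpl9 (chromosome 3, 94247259 to 94252033), a large-subunit protein with a bacterial homologue, had 11.27, 11.36 and 11.51 in LPS/GalN livers, against 10.54, 10.75 and 10.72 in LPS livers. Its log2 difference was 0.71 ± 0.21 (limma adjusted p = 0.130). The 3 values of each group lay close together, with an SD of 0.12 in LPS/GalN and 0.11 in LPS. The second target row of Mrpl9 had a log2 difference of 0.65 in the same direction.

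Mrpl49 (chromosome 19, 6053629 to 6057751), a protein found only in mitochondrial ribosomes, had 10.30, 10.62 and 10.58 in LPS/GalN livers, against 9.91, 9.82 and 10.07 in LPS livers. Its log2 difference was 0.57 ± 0.22 (limma adjusted p = 0.229), and its second row gave 0.61. Mrpl43 and Mrpl40, both specific to mitochondria, differed by 0.46 ± 0.22 (limma adjusted p = 0.322) and 0.45 ± 0.23 (adjusted p = 0.355). For all 5 genes the groups were apart, with none past the threshold.

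Lower values in LPS/GalN livers were fewer. Mrpl41 (chromosome 2, 24829636 to 24830557), a mitochondria-specific large-subunit protein that also binds the survival factor Bcl2, had a log2 intensity of 7.97, 8.29 and 8.10 in LPS/GalN livers, against 8.66, 8.81 and 9.01 in LPS livers. Its log2 difference was -0.71 ± 0.22 (limma adjusted p = 0.146). The dimmer of its 2 rows went the same way, with 7.26, 7.40 and 7.01 in LPS/GalN livers, against 8.12, 8.09 and 8.76 in LPS livers, a log2 difference of -1.10 ± 0.26 (adjusted p = 0.0654 over all rows). Both rows described as Mrpl41 were thus lower on every LPS/GalN array than on any LPS array. The dimmer row is placed at 24817964 to 24828991 on chromosome 2, outside the interval of the brighter row. Whether it measures the same transcript was not examined.

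Mrpl30 (chromosome 1, 37949787 to 37955183), which has a bacterial homologue, had 9.70, 9.56 and 9.60 in LPS/GalN livers, against 10.09, 10.09 and 10.49 in LPS livers, a log2 difference of -0.60 ± 0.22 (limma adjusted p = 0.209). Mrpl50 differed by -0.50 ± 0.25, Mrpl27 by -0.39 ± 0.23 and Mrpl48 by -0.39 ± 0.22 (limma adjusted p of 0.360, 0.446 and 0.419). Mrpl27 is the protein whose bacterial counterpart reaches towards the site of peptide bond formation. The 3 rows of Mrpl48, a protein of the ribosome's central protuberance, differed from each other: a row at a mean log2 of 7.02, matched to a non-coding RNA record, gave -1.48 ± 0.34 (adjusted p = 0.0593 over all rows), and the row at 8.70 gave 0.29 ± 0.28.

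**Figure D2:**
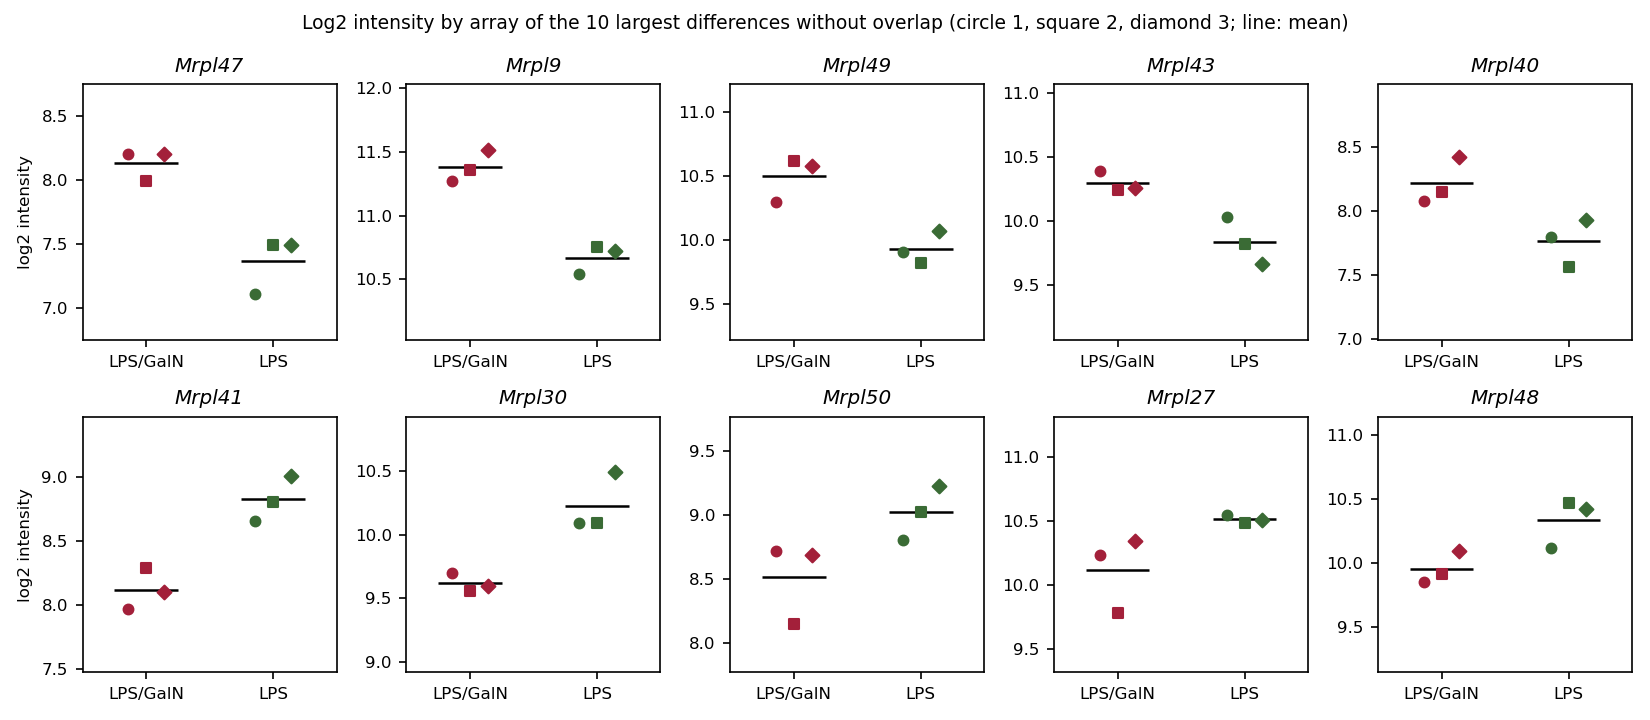
Log2 intensity on each array for the 5 largest positive (top) and 5 largest negative (bottom) differences among members whose groups did not overlap. LPS/GalN arrays are at the left of each panel and LPS arrays at the right; marker shapes give the replicate number, lines give the mean of 3 arrays, and each panel spans 2 log2 units. The group means differ by 0.39 to 0.77 log2 units.

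The promoters of these 10 genes were searched for short motifs of factors known to act on nuclear genes of mitochondrial proteins, and 5 of them held a match. Those 5 are shown, with Mrpl47 and Mrpl41, the largest difference in each direction, which held none. Mrpl40, Mrpl50 and Mrpl48 held none either and are not printed. A RefSeq promoter window (GRCm38.p6, 250 bases before to 50 after the start) was held for 65 of the 74 members. The stretches below run 5′ to 3′ from 90 bases before to 30 after the start. Capitals mark NRF1 matches (GCGC, any base, then TGCGC) in Mrpl9 and Mrpl30, the YY1 core (AAGATGGC) in Mrpl49 and the ETS core bound by GABP (CCGGAAG) in Mrpl43 and Mrpl27.
Mrpl9, higher in LPS/GalN on every array, chr3:94443246-94443365, plus strand: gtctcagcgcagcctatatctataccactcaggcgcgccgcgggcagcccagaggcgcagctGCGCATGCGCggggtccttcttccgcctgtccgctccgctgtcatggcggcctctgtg
Mrpl30, lower in LPS/GalN on every array, chr1:37890387-37890506, plus strand: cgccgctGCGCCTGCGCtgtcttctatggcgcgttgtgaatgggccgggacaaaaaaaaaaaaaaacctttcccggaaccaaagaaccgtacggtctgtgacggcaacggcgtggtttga
Mrpl43, higher, chr19:45006413-45006532, minus strand: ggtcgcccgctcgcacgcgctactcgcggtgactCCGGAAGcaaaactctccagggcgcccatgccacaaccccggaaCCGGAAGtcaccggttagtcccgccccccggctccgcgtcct
Mrpl27, lower, chr11:94653701-94653820, plus strand: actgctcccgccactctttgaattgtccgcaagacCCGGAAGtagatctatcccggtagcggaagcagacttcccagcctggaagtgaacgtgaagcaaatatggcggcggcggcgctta
Mrpl49, higher, chr19:6057726-6057845, minus strand: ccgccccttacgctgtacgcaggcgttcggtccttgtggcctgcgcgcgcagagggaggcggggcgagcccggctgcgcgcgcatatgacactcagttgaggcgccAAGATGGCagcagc
Mrpl47, higher, with no match in the stretch, chr3:32736726-32736845, minus strand: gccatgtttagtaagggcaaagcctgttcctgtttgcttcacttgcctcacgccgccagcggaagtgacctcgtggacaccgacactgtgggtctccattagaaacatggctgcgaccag
Mrpl41, lower, with no match in the stretch, chr2:24975069-24975188, minus strand: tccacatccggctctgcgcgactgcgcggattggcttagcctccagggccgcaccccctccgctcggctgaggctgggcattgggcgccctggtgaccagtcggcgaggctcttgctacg

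Motif matches were found in members with positive and with negative differences, and no share below was compared by a test. On either strand of the whole 300-base window, the ETS core was found in 24 of 65 members (36.9%), against 11.9% of 17492 protein-coding genes with a window and 9.12% of all 27025 genes. NRF1 matches were found in 12 members (18.5%), against 6.60% of protein-coding genes and 4.78% of all genes. The YY1 core was found in 10 members (15.4%), against 3.22% and 2.88%, and the longer YY1 motif, in which GGC follows the core, in 5 (7.69%), against 0.972% and 0.699%. The TATA box TATAAA was found in 4 members (6.15%), against 13.3% and 14.2%. The windows' median GC content was 58.3% in members and 56.3% in protein-coding genes. The 24 members with an ETS core had a median log2 difference of 0.18 (19 positive), the 12 with NRF1 of 0.20 (10 positive) and the 10 with the YY1 core of 0.20 (9 positive). The 27 members with none of these 3 motifs had a median of 0.15 (18 positive), and the classes were not compared by a test.

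**Figure D3:**
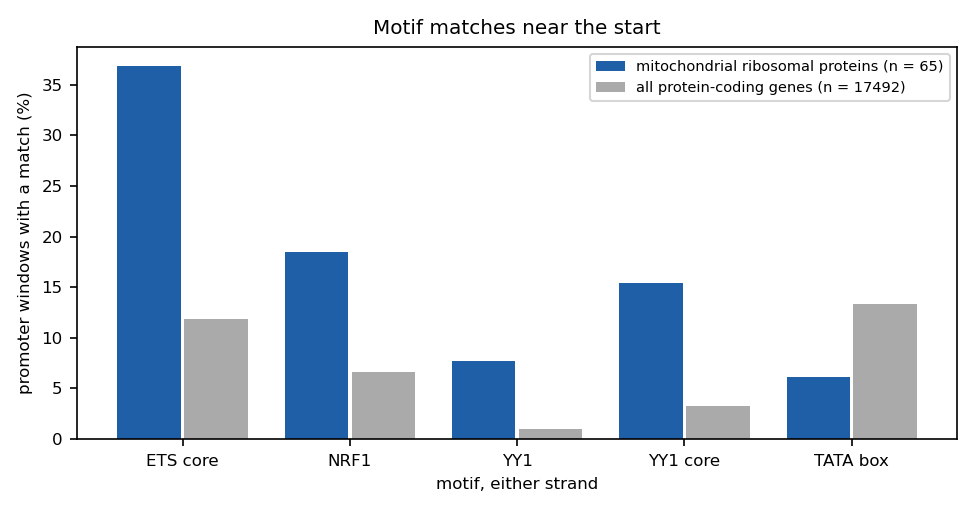
Share of promoter windows with a match to each motif, on either strand, in 65 members (left bar) and in 17492 protein-coding genes (right bar). The ETS core is the most frequent motif in members (36.9%), and the TATA box was found in 6.15% of members, against 13.3% of protein-coding genes.

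Starts facing away from each other were also counted. A second gene started on the other strand within 500 bases (or overlapping by up to 50) for 21 of the 65 members (32.3%), against 10.6% of protein-coding genes; this count was added after values had been seen. Mrpl46 and Mrps11 share such a region with each other. Mrpl46 had 8.60, 8.58 and 8.66 in LPS/GalN livers, against 8.91, 8.49 and 8.99 in LPS livers, and Mrps11 had 9.73, 8.93 and 8.81, against 9.02, 9.02 and 9.23. The groups overlapped for both. Mrps12, a protein of the decoding site, faces Sars2, the mitochondrial seryl-tRNA synthetase gene, with log2 differences of 0.044 ± 0.21 and 0.48 ± 0.23 (limma adjusted p of 0.945 and 0.346). Mrpl47 faces Ndufb5, a gene of respiratory complex I, which differed by 0.25 ± 0.21 (adjusted p = 0.592).

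Both subunits leaned the same way. The 48 large-subunit genes, Mrps30 and Mrps18a among them as in the mammalian structures, had a median log2 difference of 0.16 (quartiles -0.092 and 0.37), with 33 positive, 14 wholly higher and 5 wholly lower. The 25 small-subunit genes had a median of 0.20 (quartiles 0.089 and 0.32), with 21 positive, 5 wholly higher and 1 wholly lower. Wholly higher were 29.2% of large-subunit and 20% of small-subunit genes, against 12.9% of all features and 19.7% of those within the members' intensity range. Wholly lower were 10.4% and 4%, against 11.1% and 17.8%. All 5 members with an unadjusted p under 0.05 were large-subunit genes. The 47 members with a bacterial homologue and the 26 specific to mitochondria had medians of 0.19 and 0.20. The differences between these classes of members were not tested.

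The stalk of the large subunit recruits the translation factors. Mrpl12, a stalk protein that also binds the mitochondrial RNA polymerase, had 12.50, 12.34 and 12.38 in LPS/GalN livers, against 11.94, 11.98 and 12.08 in LPS livers. Its groups did not overlap, with a log2 difference of 0.41 ± 0.20 (limma adjusted p = 0.355). Mrpl10 and Mrpl11, which form the base of the stalk, had groups that overlapped. Mrpl10 had 11.51, 10.78 and 11.31 in LPS/GalN livers, against 11.11, 11.07 and 11.38 in LPS livers, a log2 difference of 0.015 ± 0.26 that turned negative (-0.024) when arrays were centred on their median. Mrpl11 had 10.63, 9.92 and 10.60 in LPS/GalN livers, against 10.46, 10.64 and 10.58 in LPS livers, a difference of -0.18 ± 0.26.

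Other large-subunit genes chosen for their role did not pass the threshold either. Mrpl45, which holds the ribosome at the inner membrane, had 9.73, 9.36 and 9.76 in LPS/GalN livers, against 9.57, 9.42 and 9.47 in LPS livers (log2 difference 0.13 ± 0.22, limma adjusted p = 0.818). Mrpl3, a core protein with a bacterial homologue, had 9.42, 10.03 and 10.40 in LPS/GalN livers, against 10.39, 10.26 and 10.34 in LPS livers. LPS/GalN replicate 1 was low, and the 2 other rows of Mrpl3 gave differences of -0.016 and 0.50 against -0.38 for the kept row. Mrpl37 (0.38 ± 0.22), Mrps18a (0.36 ± 0.21) and Mrps30 (0.49 ± 0.28) had positive differences with limma adjusted p between 0.434 and 0.440, and the groups of Mrps30 overlapped.

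In the small subunit the smallest adjusted p was that of Mrps10 (limma, 0.364), with a log2 difference of 0.43 ± 0.22 and groups that did not overlap. Mrps16, whose loss in people causes a failure of mitochondrial translation, had 9.50, 9.59 and 9.83 in LPS/GalN livers, against 9.58, 9.44 and 9.27 in LPS livers (log2 difference 0.21 ± 0.22, limma adjusted p = 0.682). Mrps22 differed by 0.17 ± 0.24, Mrps18b by -0.040 ± 0.21 and Mrps18c by 0.089 ± 0.25. Mrps34, specific to mitochondria, was the only small-subunit gene whose LPS/GalN arrays all lay below the LPS arrays, with 8.14, 8.15 and 8.28 in LPS/GalN livers, against 8.30, 8.71 and 8.63 in LPS livers (-0.36 ± 0.22, limma adjusted p = 0.464). Mrps36, named as a ribosomal protein but known as a subunit of the oxoglutarate dehydrogenase complex, differed by 0.11 ± 0.26 and is counted with neither subunit.

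The precision differed with brightness. Among 8 members with a mean log2 intensity under 8 the median SE of the difference was 0.29, among 32 between 8 and 10 it was 0.23, and among 34 at 10 or more it was 0.22. The brightest members were Mrpl38 (12.62 ± 0.10 in LPS/GalN and 12.50 ± 0.13 in LPS, SD, n = 3 each), Mrpl12 and Mrpl51 (11.93 ± 0.16 and 12.01 ± 0.19). The dimmest were Mrpl32 (6.16 ± 0.75 in LPS/GalN and 6.43 ± 0.37 in LPS), Mrpl55 (6.11 ± 0.44 and 6.78 ± 0.41) and Mrps25 (7.66 ± 0.30 and 7.15 ± 0.41). Brightness of different targets also depends on their probes, so these values do not rank the genes by transcript number. The largest spreads within a group were those of Mrps6 (SD 0.82 in LPS, from 6.49 to 8.08), Mrpl32 (SD 0.75 in LPS/GalN, from 5.71 to 7.03) and Mrps11 (SD 0.50 in LPS/GalN, from 8.81 to 9.73). Mrpl55 had a log2 difference of -0.68 ± 0.32 (limma adjusted p = 0.322), and its groups overlapped.

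For 30 members the array held several rows, and in 22 of these all rows differed in the same direction. In the other 8 (Mrpl3, Mrpl33, Mrpl38, Mrpl48, Mrps10, Mrps17, Mrps2 and Mrps5) the rows went both ways, and 0 of their rows passed the threshold. Of these 8, Mrpl33, Mrps10, Mrps17, Mrps2 and Mrps5 were named after their values were seen, as was Mrpl46 above.

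The lean of the members was seen on each LPS/GalN array, and it was uneven. Against the mean of the LPS arrays, the median member deviated by 0.22, 0.11 and 0.27 on LPS/GalN replicates 1, 2 and 3, against -0.073, -0.017 and 0.083 on LPS replicates 1, 2 and 3. The median on LPS/GalN replicate 2 thus stood closer to that on LPS replicate 3 than the LPS replicates stood to each other. LPS/GalN replicate 3 held the highest value of 30 of the 74 members, and LPS replicate 1 the lowest value of 28.

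Markers of other tissues moved with single arrays. All 10 intestine markers had a summed intensity of 4821 to 5447 in LPS/GalN livers, against 32536.5, 35843 and 6539 on LPS replicates 1, 2 and 3, with 7 of 10 above background on every LPS/GalN array and 10, 10 and 8 on the LPS arrays. The 9 thymocyte markers summed to 483, 11665.5 and 7411 on LPS/GalN replicates 1, 2 and 3, against 479 to 694 in LPS livers, with 8 or 9 above background in LPS/GalN and 6 or 7 in LPS. Of both lists 0 genes passed the threshold. Of 5 sinusoidal endothelial markers 3 rose, with sums of 7884 to 10296 in LPS/GalN livers, against 3468 to 6018 in LPS livers, all 5 above background on every array. The 6 Kupffer markers summed to 7108 to 9352 in LPS/GalN livers, against 4527 to 6024 in LPS livers, with 0 past the threshold. Of 5 neutrophil markers 2 (S100a8 and S100a9) fell, with sums of 910 to 1343 in LPS/GalN livers, against 2460 to 3492 in LPS livers. Above background were 5, 3 and 4 of them on LPS/GalN replicates 1, 2 and 3, and 5, 3 and 5 on the LPS replicates. The 8 hepatocyte markers were all above background and summed to 287526 to 296613 in LPS/GalN livers, against 289566 to 324234 in LPS livers, with 0 past the threshold. Of these 8, 6 had a negative difference, and the median log2 difference was -0.17. Their median log2 intensity of 15.4 stands close to the upper end of the arrays' range, so a difference could go unseen. Array medians were 61.7 to 63.1 intensity units in LPS/GalN and 60.4 to 61.2 in LPS, and the background row read 31.3 to 34.7 in LPS/GalN and 32.6 to 34.0 in LPS.

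Without LPS replicates 1 and 2 the median log2 difference of the members was 0.14, without LPS/GalN replicates 2 and 3 it was 0.22, and between LPS/GalN replicate 1 and LPS replicate 3 alone, a comparison added after seeing the data and with no test, it was 0.15. The medians of all features were 0.052, 0.045 and 0.043 in the same comparisons. The part of the endothelial, Kupffer and neutrophil markers in the members' lean was not tested.

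**Figure D4:**
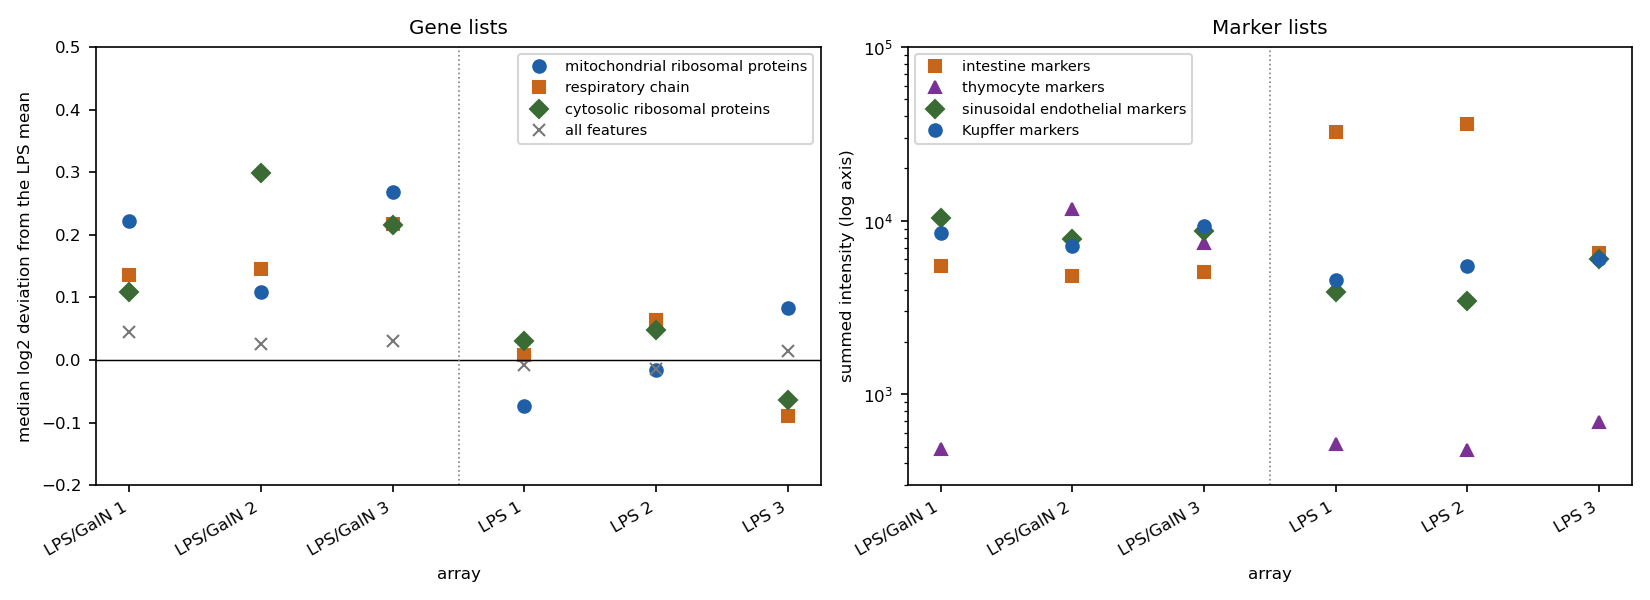
Left, median deviation of 3 gene lists and of all features from their LPS mean on each array, in log2 units. Right, summed intensity of 4 marker lists on each array (log axis). LPS/GalN arrays are left of the dotted line; the members' medians lie between 0.11 and 0.27 there and between -0.073 and 0.083 on the LPS arrays.

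Genes that work with the mitochondrial ribosome also stayed below the threshold. Of 14 mitochondrial translation factors 0 passed, with a median log2 difference of 0.11. Above background on every array were 13 of them, and the row of the elongation factor Tufm was not. Leaving out LPS/GalN replicate 2 gave a median of 0.286, and leaving out replicate 3 of that group gave -0.009. Dropping LPS replicate 3 gave 0.278, and with both LPS replicates 1 and 2 dropped it was -0.015. Mtif2, the initiation factor, differed by 0.50 ± 0.26 (limma adjusted p = 0.374), and Ict1, a release factor that is built into the large subunit, by 0.47 ± 0.23 (adjusted p = 0.335). The list of ribosome assembly and rRNA modification also held Dap3, Chchd1, Aurkaip1, Ptcd3 and Gadd45gip1, whose products are proteins of the ribosome itself. Their differences were 0.28, 0.35, 0.061, 0.19 and 0.25, and the median without them was not computed. Of all 22 genes on this list 0 passed. Positive were 12, these ribosomal proteins among them, and the 10 negative genes held none of these proteins. The median of all 22 was 0.041, and its sign depended on the arrays used. With LPS/GalN replicate 1, 2 or 3 left out in turn it was 0.014, 0.173 and -0.011, and with LPS replicate 1, 2 or 3 left out it was -0.035, 0.107 and 0.07. It was 0.189 when LPS/GalN replicates 2 and 3 were both dropped and -0.107 when LPS replicates 1 and 2 were. The helicase gene Ddx28 differed by -0.60 ± 0.23 (adjusted p = 0.229) and Rbfa, a factor of small-subunit maturation, by 0.72 ± 0.31 (adjusted p = 0.284). Of 15 mitochondrial aminoacyl-tRNA synthetases 0 passed, with a median of 0.15. Leaving out LPS/GalN replicate 2 or 3 gave 0.239 and 0.074, leaving out LPS replicate 1 or 3 gave 0.047 and 0.28, and dropping LPS replicates 1 and 2 together gave 0.042. Kars, whose product serves both the cytosol and mitochondria, had the smallest unadjusted p, with a log2 difference of -0.62 ± 0.21 (adjusted p = 0.170). Of 8 genes of mitochondrial DNA expression and replication 0 passed, with a median of 0.28, which was -0.056 with LPS/GalN replicates 2 and 3 dropped and 0.16 with LPS replicate 1 dropped. Tefm, the transcription elongation factor, differed by -0.99 ± 0.32 (adjusted p = 0.158) and Peo1, the replicative helicase, by 0.67 ± 0.26 (adjusted p = 0.231). The genes of these 4 lists were named here after their values were seen. At an unadjusted p under 0.05 the 4 lists held 3 higher and 3 lower genes. In each direction these were 0 of 14, 1 of 22, 1 of 15 and 1 of 8, against 8.47% higher and 9.04% lower among all features.

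Nuclear genes of the respiratory chain, whose complexes also hold the proteins made by mitochondrial ribosomes, and genes of the cytosolic ribosome leaned the same way. Of 77 nuclear features matched to the respiratory chain by description, 0 rose and 1 fell, against 0.596% and 3.02% of all features. Some are further positions of a subunit, such as cytochrome c oxidase subunit VIIb on chromosomes 4 and X. Of the 77, 71 were above background on every array. The median log2 difference was 0.17, with 67 of 77 positive. Wholly higher in LPS/GalN livers were 26 (33.8%) and wholly lower 4 (5.19%), against 12.9% and 11.1% of all features. The gene that fell was that of cytochrome c oxidase subunit VIIIc, with 6.62, 5.86 and 6.27 in LPS/GalN livers, against 7.38, 7.58 and 7.45 in LPS livers (log2 difference -1.22 ± 0.26, limma adjusted p = 0.0425). It stopped passing when any array other than LPS/GalN replicate 1 was left out. The row of subunit VIIIc was dim. That of subunit VIIIa, with a mean log2 of 14.44 in LPS/GalN and 14.37 in LPS livers, differed by 0.064 ± 0.21. Of 77 features matched likewise to cytosolic ribosomal proteins, 34 were wholly higher (44.2%) and 0 wholly lower, against the same shares of all features. At either p 0 of the 77 passed, with a median log2 difference of 0.22 and 73 positive. Without LPS/GalN replicates 2 and 3 this median was 0.11, and that of the members 0.22. The 5 transcripts of mitochondrial DNA, a list added after the files were seen, had differences from -0.24 to 0.064 with 0 past the threshold, and their log2 values of about 15 stand close to the upper end of the arrays' range, so a difference could go unseen. Whether the lean of any list differs from that of the members was not tested.

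**Figure D5:**
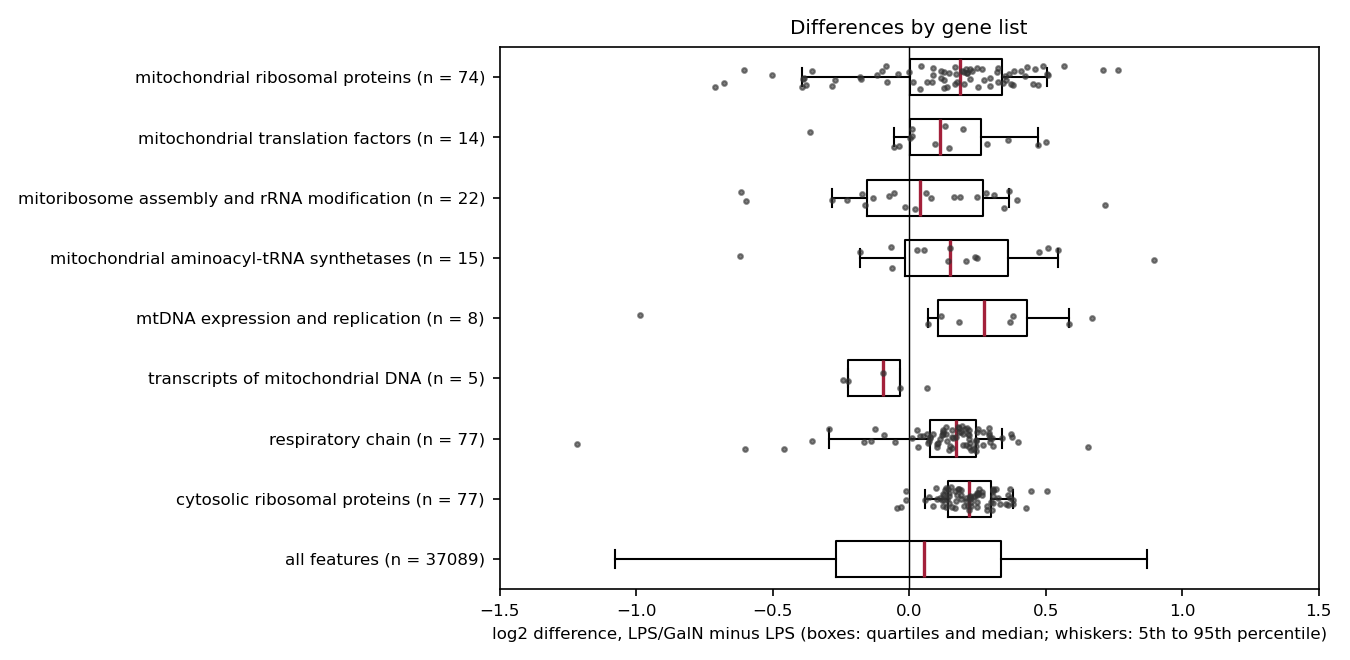
Log2 difference, LPS/GalN minus LPS, of each gene or matched feature by list. Boxes give quartiles and median, whiskers the 5th to 95th percentile and points the single genes, which are left out for all features. The members' median is 0.19, between those of the respiratory chain (0.17) and the cytosolic ribosomal proteins (0.22), and that of all features is 0.053.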

How the data were processed

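Total RNA of 6 mouse livers was hybridised to 6 one-colour (Cy3) NimbleGen arrays, 1 array per mouse. For each target and array the authors deposited 1 intensity made by RMA, as the submitters' processing notes name it, on the linear scale. RMA corrects background, normalizes between arrays and joins the probes of a target, so a change shared by all transcripts is removed. The RMA version is not given in the sources used here. Of 44170 target rows, 44155 were summarised from 3 probes. A row of 5000 random probes served as the background of its array. A deposited table of the series held the same intensity values for 18076 rows, those with at least 50 on every array, and served as an alternative.

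Rows were joined per gene name, keeping the row with the highest mean, which left 37089 features. Members were joined by symbol through RefSeq names, so that 2 names of Mrpl51 became 1 gene. The log2 of the deposited intensity was fitted with limma 3.58.1 in R 4.3.3 (lmFit, eBayes, 4.03 prior degrees of freedom, group as the only term, two-sided), with Benjamini-Hochberg adjustment over all features and a threshold of 0.05. Differences are LPS/GalN minus LPS, and p-values rest on the spread of 3 arrays a group, which limits the precision. The fit was also run on simulated data in which features and arrays vary independently, so that run does not give the error rate in these data. Gene positions are mm9, as the files give them, and describe the gene, not the probes. Promoter sequences are RefSeq's (GRCm38.p6).

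Members, lists and motifs were chosen with earlier results of these data known. Named members were those past the threshold, the 5 largest differences a direction with groups apart, the 3 brightest, the 3 dimmest, the 3 most variable within a group, and 18 fixed genes, of which Mrpl44 is not among the members. This gave 32, and 17 alternatives were planned. Same-numbered arrays did not deviate together (correlations of 0.0018, -0.0028 and 0.026 over features), so the numbers were not taken as pairs. Pancreas markers, also listed, summed to 2157 to 3167.5 in LPS/GalN and 2349 to 2850 in LPS, with 0 of 5 past the threshold.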

Additional observations from a re-analysis of the deposited data

How the results depend on the processing

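Of 543 values of the 32 named members under 17 alternatives, 514 kept their sign and their side of the threshold, 25 changed sign and 4 passed the threshold. The members past it were 2 higher (Mrpl47, adjusted p = 0.0349, and Mrpl9, adjusted p = 0.0306) and 1 lower (Mrpl41, adjusted p = 0.0414) when only the rows of the series value table were tested, and 1 higher (Mrpl9, adjusted p = 0.0075) with intensity trend and robust fitting. Over all alternatives the adjusted p ran up to 0.652 for Mrpl9, 0.662 for Mrpl47 and 0.532 for Mrpl41. The members' median log2 difference lay between 0.14 and 0.25. All features past the threshold and higher numbered 390 with dim features left out, 649 in the value table, 911 with trend and robust fitting, 390 with 16 added to the intensity, 21 without LPS/GalN arrays 2 and 3 and 0 without LPS arrays 1 and 2. Lower features numbered 260 and 0 in the last 2 settings, in which 1 array stands for a group and is assumed to vary like the others. With 1 array left out in turn, 39 to 644 features were higher (39 with LPS replicate 1 left out, 43 with LPS replicate 2, 63 with LPS/GalN replicate 2, 116 with LPS/GalN replicate 3 and 644 with LPS/GalN replicate 1) and 671 to 1118 lower.

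The numbers of the replicates are no pairs here. With them as a replicate block, 114 features were higher and 840 lower, 0 members and 0 respiratory chain genes passed, and the member median was 0.19. Not every array correlated best with its own number.

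Respiratory chain genes past the threshold numbered 0 with trend and robust fitting, with a further quantile normalization, without LPS arrays 1 and 2 and without LPS/GalN arrays 2 and 3, and 0 to 1 with 1 array left out. Kars, 1 of the aminoacyl-tRNA synthetases, passed in the value table and with trend and robust fitting, and 2 cytosolic ribosomal protein genes, those of proteins L13a and L31, passed with trend and robust fitting. Without LPS/GalN arrays 2 and 3 the median of the mitochondrial DNA expression genes was -0.056 and that of the cytosolic ribosomal proteins 0.108. With 1 array left out, the median ran from -0.009 to 0.286 for the translation factors, from -0.035 to 0.173 for ribosome assembly, from 0.047 to 0.28 for the aminoacyl-tRNA synthetases and from 0.16 to 0.328 for mitochondrial DNA expression. The sign changed for Mrpl10 (-0.024 with arrays centred, -0.183 without LPS arrays 1 and 2), Mrpl3 (0.035) and Mrpl38 (-0.299) with the mean of all rows, and Mrpl38 (-0.004) and Mrps11 (-0.071) without LPS arrays 1 and 2. Without LPS/GalN arrays 2 and 3 it changed for Mrpl11 (0.073), Mrpl32 (0.600), Mrpl51 (0.095), Mrps18b (0.050) and Mrps22 (-0.017). With 1 array left out, Mrpl10 ran from -0.139 to 0.225, Mrpl11 from -0.302 to 0.055, Mrpl51 from -0.173 to 0.024, Mrps11 from -0.220 to 0.240, Mrps12 from -0.029 to 0.107, Mrps18b from -0.085 to 0.021, Mrps18c from -0.042 to 0.249 and Mrps36 from -0.047 to 0.291. The causes were not tested.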

Other observations

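The 5 rows described as similar to a mitochondrial ribosomal protein, which are not members, did not pass the threshold. The row similar to Mrps18b had log2 values of 5.35, 4.59 and 5.48 in LPS/GalN livers, against 5.82, 5.67 and 5.71 in LPS livers (log2 difference -0.59 ± 0.28, limma adjusted p = 0.331). The row similar to Mrpl41 had 8.81, 8.01 and 8.60 in LPS/GalN livers, against 8.95, 8.78 and 8.87 in LPS livers (-0.39 ± 0.26, limma adjusted p = 0.501). Of the other 3, the row similar to a protein S4 differed by 0.19 ± 0.26 and the 2 rows similar to Mrps36 by -0.37 ± 0.48 and -0.19 ± 0.45.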
